A study of Drosophila melanogaster with 4 samples.

Results

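The genes described here belong to fibroblast growth factor (FGF) receptor and Ras/MAPK signalling, from the cell surface to the nucleus, in the *Drosophila melanogaster* embryo. They were taken as a named list of 10 genes: the receptor genes *htl* and *btl*, the ligand gene *bnl*, the adaptor gene *stumps*, the transducer genes *csw*, *drk*, *Sos* and *Dsor1*, the nuclear effector gene *pnt* and the inhibitor gene *aos*. Of these, 8 had a named probe set, 1 each, among the 13966 gene probe sets of the array, which name 10843 genes. *stumps* and *pnt* had none in the annotation used and were not analysed here. RNA from whole embryos was hybridised to 4 one-colour Affymetrix arrays. A pair of arrays held wild-type embryos of the yw stock, and the other pair held embryos of *how* germline-clone (GLC) females that lacked both maternal and zygotic HOW. All embryos were 3 to 5 h old when collected and had been kept at 25 °C, and the RNA of each array was pooled from 5 preparations of roughly 100 embryos. The homozygous mutants had been sorted from their siblings by a GFP balancer, and the *how* allele is not named in the sources used here. The wild-type embryos came from a separate stock, so stock background and the loss of HOW cannot be told apart. The same holds for embryo stage: late differentiation genes, given below, had lower signals on the mutant arrays.

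Both FGF receptors of the fly are receptor tyrosine kinases. Heartless, the product of *htl*, acts in mesoderm cells as they spread over the ectoderm, and Breathless, the product of *btl*, acts in tracheal cells as they migrate towards a source of Branchless. Both receptors signal through the adaptor Stumps and the Ras/MAPK cascade, in which Drk and Sos activate Ras and Dsor1 activates the MAP kinase. HOW, a STAR-family RNA-binding protein, is known to be required for correct mesoderm spreading. The question was whether the transcripts of this signalling route differed in embryos without HOW.

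None of the measured genes passed the test in either direction. The lowest values relative to wild type were those of the 2 receptor genes, at a fitted 1.68-fold and 1.55-fold lower signal in the mutant, and the other 6 lay within a 1.15-fold change either way. Of the 8 genes, 6 were bright enough to be tested, and 0 of these 6 were called by limma's moderated test at a Benjamini-Hochberg adjusted p under 0.05. Across all 8380 probe sets tested, 3.04% were called. At an unadjusted p under 0.05, 1 of the 6 was counted, *btl*, against 16.1% of all tested probe sets. The median log2 change over the 8 measured genes was -0.04, beside 0.00 over all tested probe sets, and 4 of the 8 lay below 0. The signals came from whole embryos, so fewer cells of a type and less RNA per cell cannot be told apart.

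**Figure D1:**
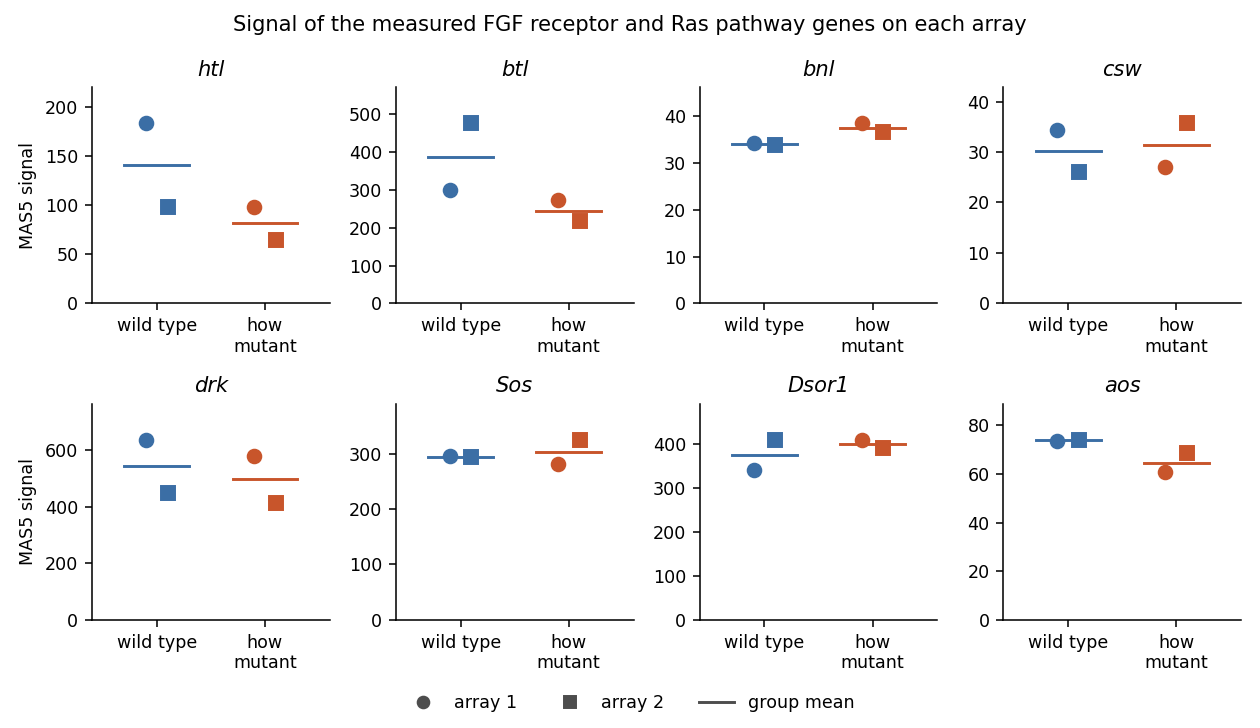
MAS5 signal (linear scale, vertical axis from 0) of each measured gene on each array, with wild type in blue and the *how* mutant in orange, array 1 as circles and array 2 as squares, and a bar at the mean of each group (n = 2). The *btl* mutant arrays, at 274 and 217, both lie under the wild-type arrays, while for *htl* the brighter mutant array, at 98.6, lies just above the dimmer wild-type array, at 98.0.

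The signal of *htl* was 184 and 98.0 in wild type against 98.6 and 64.4 in the mutant. The groups overlapped by a narrow margin, and the mutant array was the dimmer one in 3 of the 4 pairings of a mutant with a wild-type array. The mean was 141 ± 60.5 in wild type and 81.5 ± 24.2 in the mutant (SD, n = 2). The log2 change was -0.75 ± 0.38 (SE; limma adjusted p = 0.387), with a 95% interval from -1.63 to 0.13. In folds, this interval runs from 0.322 to 1.10 of the wild-type level. The wild-type arrays themselves differed by 1.87-fold, more than the 1.68-fold difference between the groups. The change was -0.30 without wild-type array 1 and -1.20 without wild-type array 2.

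The signal of *btl* was 299 and 476 in wild type against 274 and 217 in the mutant. Both mutant arrays were dimmer than both wild-type arrays, and the gap between the nearest arrays was small beside the gap between the wild-type arrays. Of all gene probe sets on the array, 20.4% had both mutant arrays below both wild-type arrays. The mean was 388 ± 125 in wild type and 245 ± 39.99 in the mutant (SD, n = 2). The log2 change was -0.63 ± 0.25 (SE; limma adjusted p = 0.272). The unadjusted limma p was 0.0375 and the 95% interval ran from -1.21 to -0.05. The change was smallest without wild-type array 2, at -0.29, and largest without wild-type array 1, at -0.97. The wild-type arrays differed in opposite ways for the receptor genes: array 1 was the brighter one for *htl* and array 2 for *btl*.

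Changes as low as that of *htl* or lower were found for 4.39% of the tested probe sets, and as low as that of *btl* or lower for 6.30%. These shares describe where the receptor genes stood among all probe sets and are not tests. Neither receptor gene was called under any of the settings in which it was tested. The adjusted p of *htl* ranged from 0.149 to 0.776 over these settings and that of *btl* from 0.0679 to 0.629, the lowest in each case with the replicate number as a block, where 9.84% of all probe sets were called. Both kept a log2 change below 0 throughout.

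**Figure D2:**
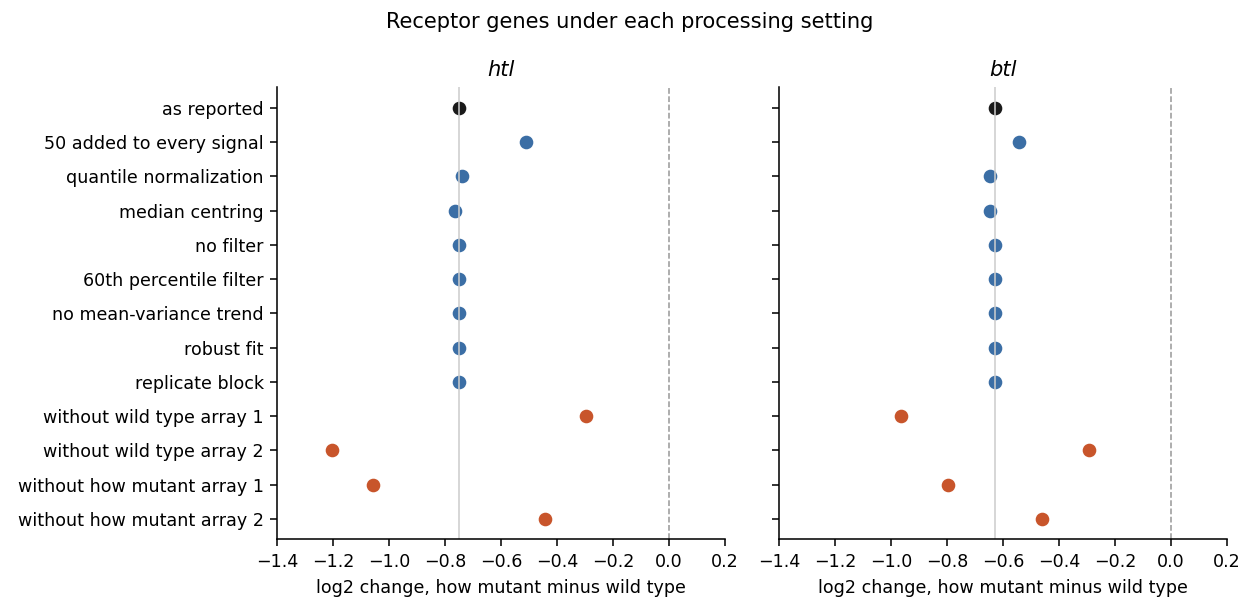
Log2 change (horizontal axis, mutant minus wild type) of *htl* and *btl* under each processing setting, with the reported value in black, other settings in blue and arrays left out in orange. For *htl* the values run from -1.20 to -0.30 and for *btl* from -0.97 to -0.29, with both extremes among the fits that leave out an array.

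*bnl*, the gene for the Branchless ligand of the tracheal receptor, gave a signal of 34.3 and 33.7 in wild type against 38.4 and 36.5 in the mutant. Both mutant arrays were above both wild-type arrays, as for 21.5% of all gene probe sets, and the means were 34.0 ± 0.371 and 37.5 ± 1.37 (SD, n = 2). These signals lay below the 39.5 that a probe set needed to enter the test, so the log2 difference of 0.14 was not tested. With 50 added to every signal it was 0.06.

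The other FGF ligand genes of the fly are *ths* and *pyr*, whose products bind Heartless. They stood in the wider pathway list and did not pass. *ths* gave 98.4 and 117 in wild type against 106 and 100.3 in the mutant, and the groups overlapped (log2 change -0.06 ± 0.27, SE; limma adjusted p = 0.95). *pyr* gave 129 and 185 in wild type against 195 and 202 in the mutant, with both mutant arrays brighter (log2 change 0.36 ± 0.24, SE; limma adjusted p = 0.523). The 95% interval was -0.68 to 0.56 for *ths* and -0.20 to 0.92 for *pyr*. Both ligand genes were singled out after their values were seen.

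The transducer genes lay close to their wild-type levels. *drk* encodes the SH2/SH3 adaptor that links activated receptors to Sos. Its signal was 637 and 448 in wild type against 581 and 414 in the mutant. Array 1 was the brighter array in both groups, the groups overlapped widely, and the log2 change was -0.12 ± 0.23 (SE; limma adjusted p = 0.856). *Sos* encodes the exchange factor that loads Ras with GTP. Its signal was 296 and 293 in wild type against 281 and 325 in the mutant, so that the wild-type arrays lay between the mutant arrays (log2 change 0.04 ± 0.17, SE; limma adjusted p = 0.95).

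*Dsor1* encodes the MAP kinase kinase. Its signal was 342 and 410 in wild type against 409 and 391 in the mutant, and the mutant arrays lay between the wild-type arrays. The log2 change was 0.10 ± 0.17 (SE; limma adjusted p = 0.846). The 95% intervals as a share of the wild-type level were 0.775 to 1.36 for *Sos*, 0.815 to 1.40 for *Dsor1* and 0.635 to 1.33 for *drk*. *csw*, the gene for the phosphatase Corkscrew, which acts between receptors and Ras, was too dim to be tested. Its signal was 34.3 and 26.0 in wild type against 27.0 and 35.7 in the mutant, with wide overlap of the groups.

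*aos* encodes Argos, a secreted protein that binds the ligand of the epidermal growth factor receptor and is itself a known transcriptional target of that receptor. Its signal was 73.6 and 74.1 in wild type against 60.6 and 68.4 in the mutant. Both mutant arrays were the dimmer ones, by a margin smaller than the gap between them, and the means were 73.8 ± 0.318 and 64.5 ± 5.53 (SD, n = 2). The log2 change was -0.20 ± 0.33 (SE; limma adjusted p = 0.835), with a 95% interval of -0.96 to 0.57. In all, mutant and wild-type arrays were fully apart for 3 of the 8 genes, 2 lower and 1 higher in the mutant, beside 42.0% of all gene probe sets.

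**Figure D3:**
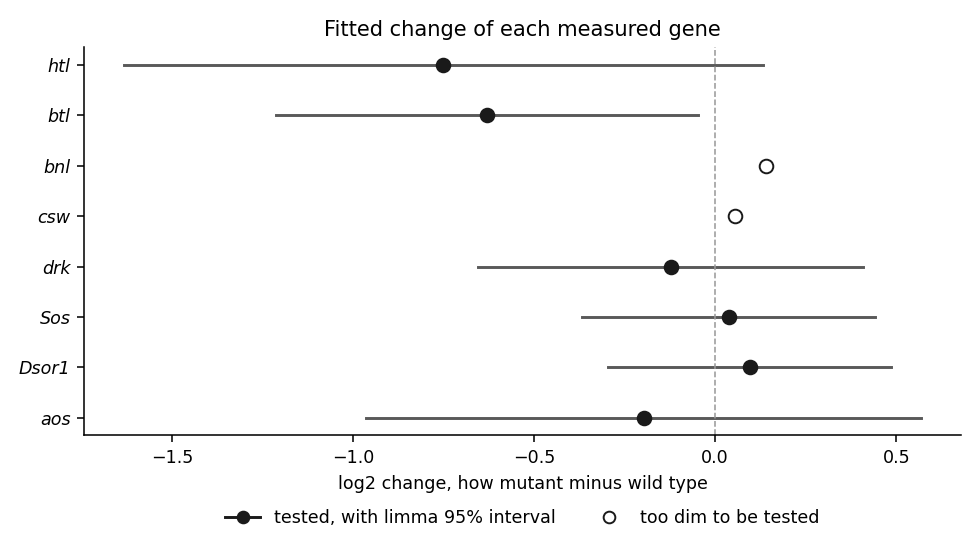
Log2 change (mutant minus wild type) of each measured gene with limma's 95% interval for the 6 that were tested; open circles mark *bnl* and *csw*, which were too dim. Of the intervals, that of *btl* alone lies wholly below 0, from -1.21 to -0.05 before any adjustment over probe sets.

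The rest of the receptor tyrosine kinase and Ras/MAPK network was followed with a list of 71 further genes in 6 roles, of which 51 were measured and 44 were bright enough to be tested. In limma's test with Benjamini-Hochberg adjustment 0 of 44 rose and 0 fell, beside 1.75% and 1.29% of all tested probe sets, and 3 of the 44 had an unadjusted p under 0.05, beside 16.1% of all tested probe sets. The median log2 change over the 51 genes was -0.02. The 3 genes were *jeb*, *Shc* and *14-3-3zeta*. *jeb* encodes Jelly belly, the ligand of the receptor Alk in the visceral mesoderm. It gave 239 and 213 in wild type against 168 and 95.5 in the mutant, both lower (log2 change -0.83 ± 0.29, SE; limma adjusted p = 0.211). A second, dim probe set of *jeb* stood at 0.59, the opposite direction, with overlapping groups. *Shc* encodes a phosphotyrosine adaptor and gave 446 and 349 in wild type against 236 and 292 in the mutant (log2 change -0.59 ± 0.20, SE; limma adjusted p = 0.20). *14-3-3zeta*, whose product binds Raf, gave 2787 and 3191 in wild type against 3733 and 4048 in the mutant (log2 change 0.38 ± 0.15, SE; limma adjusted p = 0.254). The groups were apart for these 3 genes. Over the 51 measured genes they were apart for 9 that were lower and 8 that were higher in the mutant, beside 20.4% and 21.5% of all gene probe sets.

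By role, 13 of 17 ligand and processing genes were measured and 10 tested, with a median log2 change of 0.01. After *jeb*, the smallest p in this role belonged to *Pvf3*, a ligand gene of the receptor Pvr, at 0.55 ± 0.28 (SE). Its other 3 probe sets lay at -0.53, -0.25 and 0.16, so they did not share a direction. Of the 5 receptor genes 3 were tested: *Egfr* stood at 0.09 and *Pvr* at 0.05. The second *Egfr* probe set stood at -0.33, the opposite direction, with 531 and 515 in wild type against 442 and 394 in the mutant. Heparan sulphate chains are needed by both FGF receptors. Of the 10 genes for their synthesis and carriers 6 were tested, with *Hs6st*, a sulphotransferase gene, at 0.28 and *ttv*, a polymerase gene, at -0.22. All 3 probe sets of *Hs6st* were higher in both mutant arrays, at 0.21 to 0.33, beside 21.5% of all gene probe sets. None was called, and they measure the same gene on the same arrays, so they are not independent.

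Among 16 cytoplasmic transducer genes 8 had a named probe set and all 8 were tested. Those without one, and so not analysed, included *Ras85D*, *Raf* and *rl*, the genes for Ras, Raf and the MAP kinase. The median of the 8 was -0.23 and 6 of 8 were below 0, beside 4168 of all 8380 tested probe sets. Of 10 inhibitor genes 6 were tested. *Mkp3*, the MAP kinase phosphatase gene, stood at -0.25 and *Nf1*, a Ras GTPase-activating protein gene, at 0.42. The second *Mkp3* probe set stood at -0.42. Both *Mkp3* probe sets were lower on both mutant arrays, beside 20.4% of all gene probe sets, and neither was called. *sty*, the gene for the FGF antagonist Sprouty and singled out after its values were seen, gave 243 and 312 in wild type against 222 and 360 in the mutant. The means differed by less than the spread of the arrays (0.04 ± 0.26, SE). Of 13 nuclear effectors and known targets 11 were tested, and their median was 0.03. *hkb*, a target of the Torso receptor, stood at -0.38 ± 0.17 (SE) and *eve*, a segmentation gene that later marks dorsal mesoderm precursors formed under Heartless signalling, at -0.55 ± 0.28 (SE). The limma adjusted p was 0.316 for *hkb* and 0.388 for *eve*. The mutant arrays of *hkb*, at 309 and 328, both lay below the wild-type arrays, at 388 and 441, while those of *eve* overlapped.

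The gene with the largest difference in the list was too dim on average to be tested. *kek1*, singled out after its values were seen, encodes a transmembrane inhibitor of the epidermal growth factor receptor. It gave 88.8 and 127 in wild type against 12.2 and 8.93 in the mutant, with no overlap. The fitted difference was 10.2-fold lower, and 2.59-fold lower with 50 added to every signal, so its size is uncertain. With no filter on dim probe sets *kek1* was not called (limma adjusted p = 0.155), nor was any other probe set. With 50 added to every signal *kek1* entered the test and was called (limma adjusted p = 0.0122). Settings that let it past the filter did so through its wild-type signals, so their calls are not used here. *Alk*, also singled out afterwards and too dim to be tested, gave 35.0 and 7.74 in wild type against 64.5 and 48.2 in the mutant. The mutant arrays of *Alk* were both brighter, and the wild-type arrays lay far apart.

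**Figure D4:**
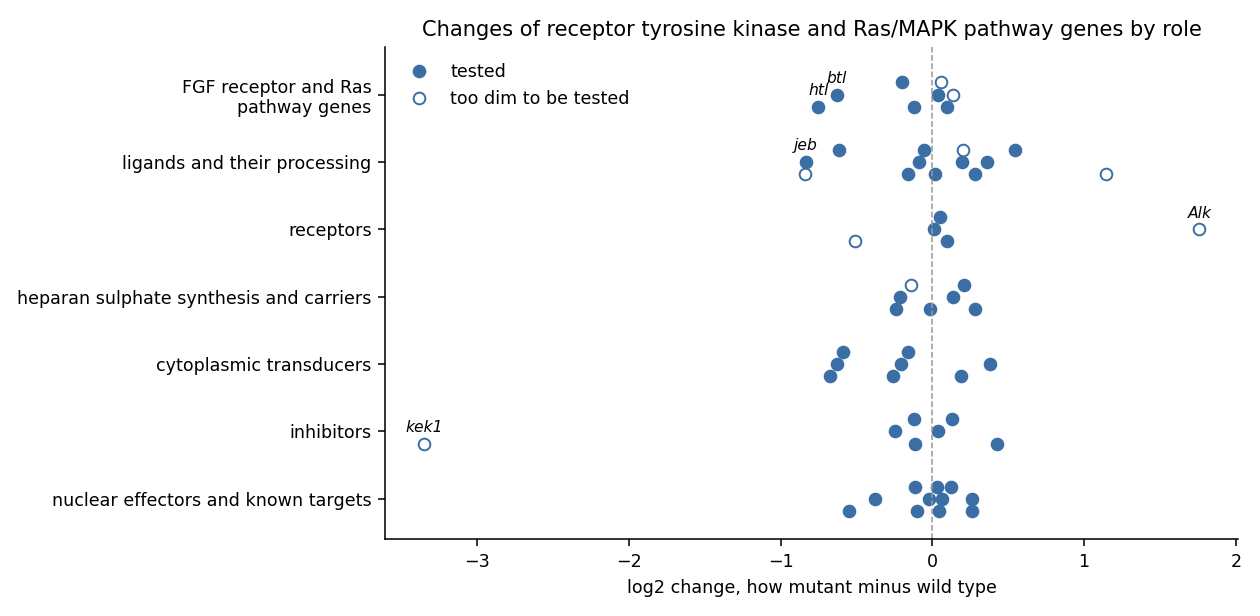
Log2 change (mutant minus wild type) of the 8 measured FGF receptor and Ras pathway genes and of 51 further pathway genes by role, each gene by its brightest probe set; filled circles were tested and open circles were too dim. The points of each role lie on both sides of 0, and *kek1* (-3.35) and *Alk* (1.76), both untested, lie farthest out.

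Markers of the tissues in which the receptors act, and of embryo age, were read beside these values. Of 6 genes of the tracheal primordium 5 were measured and 4 tested, and *trh* had no named probe set. None passed, and 3 of the 5 had a log2 change below 0. The summed signal of the 5 was 4305 to 5798 in wild type and 4624 to 5246 in the mutant. Most of that sum was *rib*; without it the sums were 1099.8 and 856 in wild type against 1032 and 923 in the mutant. Of 8 mesoderm genes 6 were measured and tested, and their summed signal was 3710 to 4363 in wild type and 3945 to 4051 in the mutant. The mesoderm gene *lmd* rose by 1.02 (limma adjusted p = 0.0497), beside 1.75% of all tested probe sets called higher, and was not called with no filter (limma adjusted p = 0.254). The other 5 did not pass. All 5 had a log2 change below 0, from -0.35 to -0.05, beside 4168 of all 8380 tested probe sets. Without *lmd*, left out after its value was seen, the mesoderm sum was 3437 and 3954 in wild type against 3409 and 3227 in the mutant. Most of this sum was *sna*. Both mutant arrays were lower, but the nearest arrays, at 3437 and 3409, lay close together. The part of this difference in the value of *htl* was not tested. Of 12 late differentiation genes 10 were measured and 9 tested. Of these, 8 were called lower, beside 1.29% of all tested probe sets, and none of the 8 was called with no filter (limma adjusted p 0.0891 to 0.158). Among the 8, *Mlc1*, *up*, *Osi6* and *Cpr65Ea* lay under 39.5 on both mutant arrays. They passed the filter through their wild-type signals, so their calls are no support for a change. The summed signal of the 10 went from 4620 and 4657 in wild type to 621 and 731 in the mutant. All 10 lay lower on both mutant arrays, among them *Mlc2* (951 ± 45.3 to 77.9 ± 6.66, SD, n = 2), beside 20.4% of all gene probe sets. This list was chosen with earlier results of these data known, so the count is a description only. Whether the groups differed in embryo stage was not tested. The part of the late differentiation difference in the values of *htl*, *btl*, *jeb* and *kek1* was not tested either. The chromosome arm that carries *how*, 3R, also carries *htl* and *bnl* in the RefSeq gene table of Release 6, and *how* itself was not analysed here.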

How the data were processed

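The deposited values are 1 intensity per probe set and array, a linear signal made with MAS5 (per the submitters' processing notes). No label states the MAS5 version or options. The mean without the highest and lowest 2% of signals was 250.04 on each array, so the arrays were already scaled. Detection calls were not used here, and 44 control probe sets were left out. Signals under the 5th percentile (3.38) were raised to that value before log2 transformation. Probe sets under the 40th percentile of mean log2 signal (39.5) were not tested. The rest were fitted with limma 3.58.1 under R 4.3.3 (linear model, empirical Bayes moderation with a mean-variance trend, 2 residual and 5.80 prior degrees of freedom), after a check on simulated data. In that check 14.3% of simulated 1.5-fold changes, 59.7% of 2-fold and 89.8% of 4-fold changes were called. Changes of the size fitted for the receptor genes could therefore go uncalled.

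Gene names came from the platform's annotation and the RefSeq gene table of Release 6; those with several symbols were left unnamed, as *sotv* was. A gene is represented by its brightest probe set. Named were all measured genes of the list and, in each role, the passing genes and the 2 with the smallest p; others are marked. The genes and lists were chosen with earlier results of these data known. Alternatives covered scaling, filter, variance model, added constant, replicate block, threshold and single arrays. The number of arrays limits the precision. The design text calls the arrays of a group independent samples, but each is a pool, so p-values measure the spread between pools.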

Additional observations from a re-analysis of the deposited data

How the results depend on the processing

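None of the measured FGF receptor and Ras pathway genes was called under any setting, the 0.1 threshold and the replicate block included; *htl* and *aos* with the 60th percentile filter were too dim to be tested. Their median log2 change, -0.04, was -0.06 to -0.05 under scaling and the added constant. It was -0.17 to 0.0039 with an array left out (-0.17 without wild-type array 2, -0.11 without mutant array 2). With an array left out, *drk* ran from -0.38 to 0.13, *Sos* from -0.069 to 0.14 and *Dsor1* from -0.035 to 0.23. The sign turned without wild-type array 1 for *Dsor1* and *drk* and without mutant array 2 for *Sos* and *drk* (0.12). The untested *csw* ran from -0.15 to 0.26 and turned its sign without wild-type array 2 and without mutant array 2. The count of wider pathway genes, 0, was 3 with the replicate block (*jeb*, *sl* and *14-3-3zeta*, limma adjusted p = 0.0376, 0.0178 and 0.0376, where 9.84% of probe sets were called), and 0 to 1 with an array left out. That 1 was *kek1*, which passed the filter through its wild-type signals once a dim mutant array was dropped; the lone mutant array is then assumed to vary like the wild type, and the call is no support for a change. The count of all probe sets, 255, was 825 with the replicate block, 95 with no mean-variance trend, 401 at an adjusted p under 0.1, 106 to 166 with an array left out and 0 with no filter, where 13966 probe sets are tested and 1782 had an unadjusted limma p under 0.05. It was 202 to 306 under the other settings. Apart from the reported fit, the count of wider pathway genes was taken only with no filter, the replicate block and an array left out. The labels do not say that a replicate number marks a batch, and deviations of same-numbered arrays correlated with r = 0.183 across probe sets. The cause of these differences was not tested. Each measured gene has 1 probe set, so averaging probe sets changed nothing.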
